A study of Mus musculus with 30 samples.

Results

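The 9 skeletal muscle contractile genes Acta1, Tnnt3, Tnnc2, Tnni2, Myh4, Mylpf, Ttn, Ckm and Atp2a1 were followed through 30 single-cell RNA libraries from 8 organs of mice with and without arthritis. They were taken by name, through their Entrez gene numbers, and are 9 of the 23013 genes in the table, all 9 with units in at least 1 library. The libraries came from 8 male DBA1/J mice. In 4 of these mice, S1, S2, S6 and S7, collagen-induced arthritis (CIA) had been raised by immunization with bovine collagen II in complete Freund's adjuvant and a booster in incomplete adjuvant, and their arthritis scores were 8, 8, 3-4 and 3. The 4 healthy controls (H3, H4, H6, H7) had a score of 0 and by the methods received phosphate-buffered saline, so the controls do not separate collagen from adjuvant. The labels give no age, and by the methods the animals were 8 to 12 weeks old when housed. Muscle, the organ of interest here, was limb muscle by the study's methods and was represented by 1 library of the healthy mouse H6 and 1 library of the CIA mouse S1. Skin, lung, spleen and thymus also came from H6 and S1, and joint from H3 and S1 with 2 libraries of S1. Blood and lymph node came from 4 healthy and 3 CIA mice each.

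Skeletal muscle contracts when myosin heads on the thick filament pull on the actin of the thin filament. Calcium released from the sarcoplasmic reticulum binds the troponin complex on the thin filament and lets myosin attach, and a calcium pump then returns it to the store. Most of these proteins exist as fast-fibre and slow-fibre versions from separate genes. A mature fibre is a long syncytium with many nuclei, which enzymatic dissociation and a fine strainer do not recover as an intact cell, so that libraries of dissociated muscle usually consist mainly of the mononuclear cells between the fibres.

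Promoters were listed for 7 of the 9 genes, Acta1, Ckm, Mylpf, Ttn, Myh4, Tnnc2 and Atp2a1. They are RefSeq sequences of the build GRCm38.p6 and run from 250 bases before to 50 bases after the transcript start. For Mylpf this start lies inside the listed span of the gene, chr7:127208848-127214288, and not at its first base. The 4 below are shown because they belong to a gene with units in 25 libraries (Acta1), a gene with units in 2 (Myh4) and the pair that passed the test of muscle against the other organs (Mylpf and Tnnc2). They lie at chr8:123894726-123895025 on the minus strand, chr11:67237562-67237861 on the plus strand, chr7:127211358-127211657 on the plus strand and chr2:164779685-164779984 on the minus strand, in that order. Capitals mark the letters CANNTG (the E-box bound by myogenic factors), TATAAA, the CArG box bound by serum response factor and the MEF2 site, each searched on both strands.
Acta1: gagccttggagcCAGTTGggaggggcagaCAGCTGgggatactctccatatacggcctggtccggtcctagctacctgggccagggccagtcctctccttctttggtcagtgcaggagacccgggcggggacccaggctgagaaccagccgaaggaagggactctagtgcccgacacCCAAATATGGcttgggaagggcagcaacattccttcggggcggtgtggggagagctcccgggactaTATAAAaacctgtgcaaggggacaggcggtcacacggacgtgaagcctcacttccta
Myh4: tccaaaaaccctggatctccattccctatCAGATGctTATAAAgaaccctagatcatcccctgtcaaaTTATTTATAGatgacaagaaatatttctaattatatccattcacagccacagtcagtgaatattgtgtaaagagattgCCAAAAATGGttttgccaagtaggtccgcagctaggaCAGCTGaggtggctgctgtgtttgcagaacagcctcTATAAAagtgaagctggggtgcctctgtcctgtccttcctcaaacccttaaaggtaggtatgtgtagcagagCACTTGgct
Mylpf: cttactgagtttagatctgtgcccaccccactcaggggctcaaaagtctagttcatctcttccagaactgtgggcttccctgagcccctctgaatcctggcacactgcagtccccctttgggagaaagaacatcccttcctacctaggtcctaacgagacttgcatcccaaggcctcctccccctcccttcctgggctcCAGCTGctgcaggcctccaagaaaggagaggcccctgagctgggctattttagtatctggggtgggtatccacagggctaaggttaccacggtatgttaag
Tnnc2: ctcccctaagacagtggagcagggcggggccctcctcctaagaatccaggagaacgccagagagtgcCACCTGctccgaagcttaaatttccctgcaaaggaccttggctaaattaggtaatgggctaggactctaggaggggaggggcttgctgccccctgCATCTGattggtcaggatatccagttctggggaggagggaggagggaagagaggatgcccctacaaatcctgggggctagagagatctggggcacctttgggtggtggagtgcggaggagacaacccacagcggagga
The E-box letters were found in 7 of 7 promoters of these genes and in 72.3% of the 32851 promoters of the table, so that they do not set the group apart. TATAAA was found in 2 of 7 and in 13.6% of all promoters, the CArG box in 2 of 7 and in 1.63%, and the MEF2 site in 2 of 7 and in 3.19%. Acta1 and Myh4 each held a CArG box and TATAAA, and Myh4 and Ttn each held a MEF2 site. In Myh4 the MEF2 site and 1 TATAAA overlapped. These are matches of letters and not bound sites.

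The deposited values are whole numbers smoothed over neighbouring barcodes of a library, called units here, and a level is given as UPM, the units of a gene scaled to a common library total of 1000000 units. One molecule was counted in several barcodes, so that small numbers of units may rest on a single molecule. The libraries held 217494 to 7886790 units in 27 to 934 barcodes. The muscle libraries differed in several technical measures. The healthy muscle library had 421 barcodes with 245 distinct profiles and 3333298 units, and the CIA muscle library had 54 barcodes with 16 distinct profiles and 423083 units. Among genes with units, 21.3% never exceeded a value of 1 in healthy muscle and 56.2% in CIA muscle. Over all libraries this share fell into separate ranges, 5.25% to 21.3% in 19 libraries and 37.1% to 58.1% in 11. They are called libraries with few and with many rare genes, split at 25%. The titles of the muscle libraries also end differently, in CIA for healthy muscle and in 2CIA for CIA muscle, and by the study's supplement red cells were lysed in healthy muscle only. Disease, mouse, batch, lysis and the share of rare genes cannot be told apart between these libraries. No barcode sequence was found in both (0 shared), and 13 of 8255 barcode sequences in the table were found in more than 1 library.

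The 9 genes summed to 5885 UPM in CIA muscle and to 81.6 UPM in healthy muscle, a ratio of 72.1. The 28 libraries of other organs ranged from 0 to 221 UPM with a median of 64.5. Healthy muscle lay inside this range, with 10 libraries of other organs above it, and 5 of the 9 genes were listed at 0 in it. The label muscle therefore had its defining genes in the library of S1 but not, beyond the level in other organs, in the library of H6. In CIA muscle 9 of 9 genes were at their highest level among the 30 libraries, against 8.70% of the 20704 genes with units. The next highest sums were 221 UPM in the healthy joint, 159 in 1 healthy lymph node library and 138 in the blood of H3. Within the 10 other libraries with many rare genes, the sum ran from 13.1 to 138 UPM with 1 to 7 of the 9 genes above 0. In a library of mixed cells, fewer fibre-derived barcodes and less RNA per barcode cannot be told apart.

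**Figure D1:**
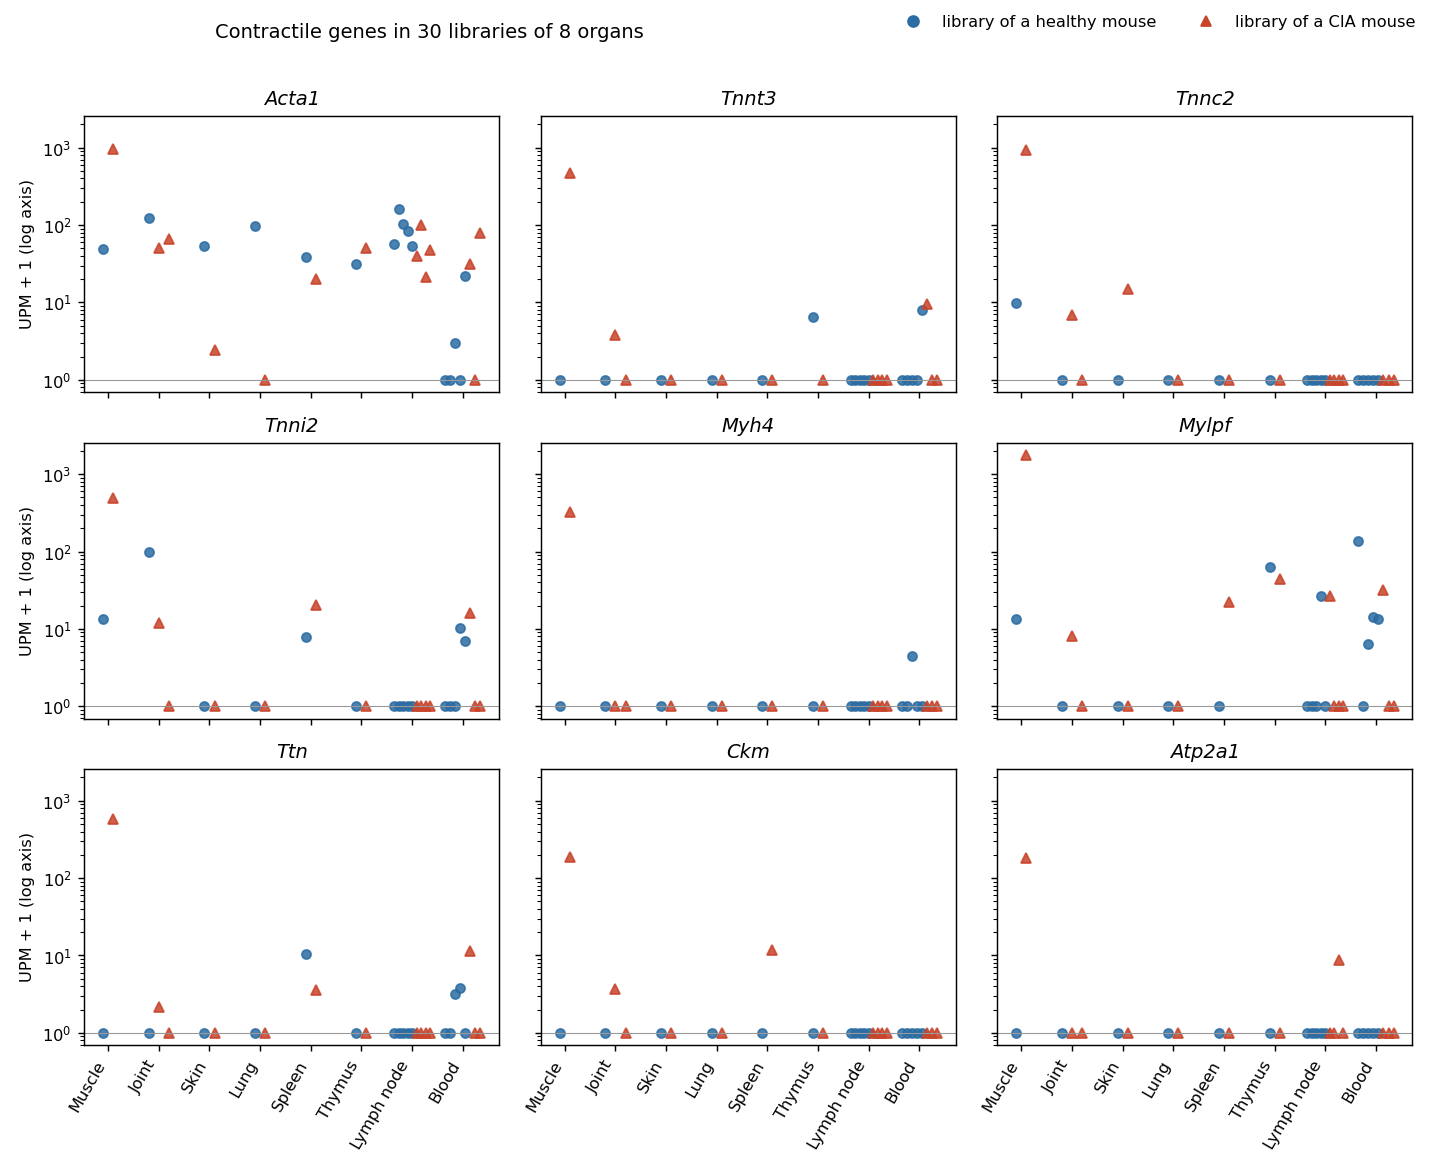
Each panel shows 1 gene and each point 1 of 30 libraries, placed by organ (x axis), with its level as UPM + 1 on a log axis; a point on the grey line is listed at 0. CIA muscle (triangle at the left of each panel) is the highest point for 9 of 9 genes, at 180 to 1759 UPM, whereas healthy muscle reaches at most 48.0 UPM.

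The thin filament gene Acta1, skeletal alpha-actin (Entrez 11459, chr8:123891758-123894775), was above 0 in the most libraries of the group, 25 of 30. It was measured at 969 UPM in CIA muscle and 48.0 UPM in healthy muscle, a ratio of 20.2. It was also above 0 in 23 of the 28 libraries of other organs, up to 159 UPM in a healthy lymph node library of H4. Healthy joint had 123 UPM and the 2 CIA joint libraries 49.1 and 64.3 UPM. Healthy skin had 53.1 and CIA skin 1.41 UPM. In lung the healthy library had 96.3 UPM and the CIA library was listed at 0, in spleen the values were 37.9 and 19.2 UPM, and in thymus 30.1 and 49.1 UPM. Over mice, lymph node ranged from 31.3 to 123 UPM with a median of 55.2 (n = 7), and blood from 0 to 77.4 UPM with a median of 1.64 (n = 7). Healthy muscle was thus below healthy joint, healthy skin, healthy lung and the lymph node median. CIA muscle held 11.6% of all Acta1 units. Acta1 belongs to a family of closely related actins, and reads shared between its members could be split among them, which leaves its low levels outside muscle uncertain.

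The 3 fast troponin subunits were above 0 in fewer libraries, 4 for Tnnc2, 5 for Tnnt3 and 9 for Tnni2. Tnnc2 (Entrez 21925, chr2:164777161-164779734), the calcium-binding subunit, was measured at 922 UPM in CIA muscle and 8.70 UPM in healthy muscle. Its other values above 0 were 14.1 UPM in CIA skin and 5.84 UPM in 1 CIA joint library, and 80.4% of its units were in CIA muscle. Tnnt3 (Entrez 21957, chr7:142498771-142516213), which ties the complex to tropomyosin, had 473 UPM in CIA muscle and was listed at 0 in healthy muscle. Elsewhere it was above 0 in 4 libraries, at most 8.63 UPM in the blood of S2. Tnni2 (Entrez 21953, chr7:142441816-142444410), the inhibitory subunit, had 489 UPM in CIA and 12.3 UPM in healthy muscle. It differed from the other troponins in reaching 98.1 UPM in the healthy joint, which exceeded healthy muscle, while the CIA joint of S1 had 10.3 UPM over its 2 libraries. CIA muscle was 65.4 times the highest library of another organ for Tnnc2, 54.8 times for Tnnt3 and 4.99 times for Tnni2.

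On the thick filament, Myh4 (Entrez 17884, chr11:67237812-67260447), the heavy chain of the fastest fibres, was above 0 in the fewest libraries, together with Atp2a1. It had 329 UPM there, was listed at 0 in healthy muscle and was above 0 in only 1 other library, the blood of H4 with 3.45 UPM. Its neighbours Myh1 and Myh2 are closely related fast myosins, with 18.9 and 28.4 UPM in CIA muscle. Reads may be split between these genes, which was not tested. Mylpf (Entrez 17907, chr7:127208848-127214288), the fast regulatory light chain, had 1759 UPM in CIA and 12.6 UPM in healthy muscle, a ratio of 140. Outside muscle it was above 0 in 11 libraries, with 62.8 and 42.9 UPM in healthy and CIA thymus and 138 UPM in the blood of H3. Both thymus libraries were above healthy muscle. The value in the blood of H3 rested on 30 units, in the library with the fewest units.

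Ttn (Entrez 22138, chr2:76703980-76982557) encodes titin, the elastic protein that spans from the Z-disc to the M-band. It had 581 UPM in CIA muscle, was listed at 0 in healthy muscle and was at most 10.3 UPM in 6 other libraries of joint, spleen and blood. Ckm (Entrez 12715, chr7:19411094-19421583), the creatine kinase that buffers ATP in fibres, had 184 UPM in CIA muscle, 0 in healthy muscle, and 10.8 and 2.66 UPM in CIA spleen and 1 CIA joint library. Atp2a1 (Entrez 11937, chr7:126445858-126463103), the calcium pump of the sarcoplasmic reticulum in fast fibres, had 180 UPM in CIA muscle, 0 in healthy muscle, and 7.83 UPM in 1 lymph node library of S7. The remaining libraries were listed at 0 for these genes. The fibre-defining genes Ckm, Ttn, Myh4, Tnnt3 and Atp2a1 were therefore all at 0 in the library labelled healthy muscle, a library with few rare genes.

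Between the muscle libraries, 9 of 9 genes were past a log2 difference of 2 on the log2(UPM + 10) scale, with values from 4.08 for Acta1 to 6.29 for Mylpf. Among the 7579 genes with at least 50 units over both libraries, 7.57% were as much higher in CIA muscle, 16.3% were as much lower, and the median of all was -0.28. Of the 9 genes only Acta1 had 50 units in healthy muscle, so that the other 8 entered this comparison through the library in which they were high and their number supports nothing by itself. With 1 mouse per state this difference has no replicate check and no test. In joint 3 of the 9 genes (Acta1, Mylpf and Tnni2) had the 50 units needed, and 0 of these 3 were past the same limit upwards, where 3.53% of 11421 genes were. Tnni2 was lower in the CIA joint, with a log2 difference of -2.42, where 2.06% of genes were past the limit downwards. Acta1 in joint had a log2 difference of -1.14, and Mylpf 0.73. In skin only Acta1 had 50 units, so that the other 8 genes could not be compared, and 0 of 1 was past the limit, where 2.58% of 7437 genes were. Acta1 was lower in CIA skin, with a log2 difference of -2.47, where 3.54% of genes were past the limit downwards, but it had 50 units only through the healthy library in which it was high, so that nothing is read from this share. Only 2 units of Acta1 were in CIA skin, against 97 in healthy skin. The ratios of the healthy over the CIA level were 2.44 for Acta1 and 9.56 for Tnni2 in joint, and 37.7 for Acta1 in skin.

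For the comparison of organs, levels were summed per mouse and organ (26 sums) and fitted together with limma. The fit takes 1 spread per gene over all organs, and blood and lymph node have the most sums. Tnnc2 and Ckm were at 0 in all 7 sums of each. Their spread therefore lay in other organs, muscle included, where Tnnc2 had 8.70 and 922 UPM. Only 3 of the 9 genes, Acta1, Mylpf and Tnnc2, reached the minimum mean level of 25 UPM, and without the CIA muscle library only Acta1 did. The filter was thus passed through the library in which they were high, and the number called supports nothing by itself. Against the mean of the 7 other organs, Tnnc2 was higher in muscle by 3.46 (log2, SE 0.55, limma adjusted p = 0.000898) and Mylpf by 3.40 (SE 0.85, adjusted p = 0.0424). Acta1 had a difference of 2.43 (SE 0.86, adjusted p = 0.281) and was not called. Of all 5481 genes tested 31, or 0.566%, were called higher, and 9 lower. With mouse as a term in the fit Tnnc2 kept its call (adjusted p = 0.0251) and Mylpf lost it at a similar difference (3.12, SE 0.83, adjusted p = 0.107). These calls rested on the CIA library. Without it, healthy muscle alone gave 0 calls among these genes, with an Acta1 difference of 0.36 (adjusted p = 1), whereas without the healthy library all 3 were called and Mylpf and Tnnc2 differed by 6.46 and 6.08.

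Without a filter on low values, 9 genes were tested and 7 were called higher in muscle, where 1.6% of 20704 genes were. Acta1 (adjusted p = 0.25) and Mylpf (adjusted p = 0.0835), the genes with units in most other libraries, were the exceptions. The differences of the 7 called genes lay between 1.92 for Ckm and 3.46 for Tnnc2, with adjusted p from 0.0132 to 0.0442. The same limits apply, since 5 of these genes were at 0 in the other muscle library. Joint and skin were each set against the 6 organs other than muscle, so that these comparisons share most of their reference sums with that of muscle. In joint 0 of the 3 filtered genes were called, where 4.8% of genes were called higher. Acta1 had a difference of 1.52 (SE 0.86, adjusted p = 0.536), Mylpf -0.39 (adjusted p = 0.942) and Tnnc2 0.30 (adjusted p = 0.93). Without the filter 8.69% of genes were called higher in joint and none of these 9, and Tnni2 came closest with 2.06 (SE 0.66, adjusted p = 0.0563). In skin 0 of 3 were called, where 4.78% of genes were, and 0 of 9 without the filter, where 11.1% were. The skin differences of Acta1, Mylpf and Tnnc2 were -0.66, -0.97 and 0.60 (adjusted p = 0.74, 0.594 and 0.611).

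**Figure D2:**
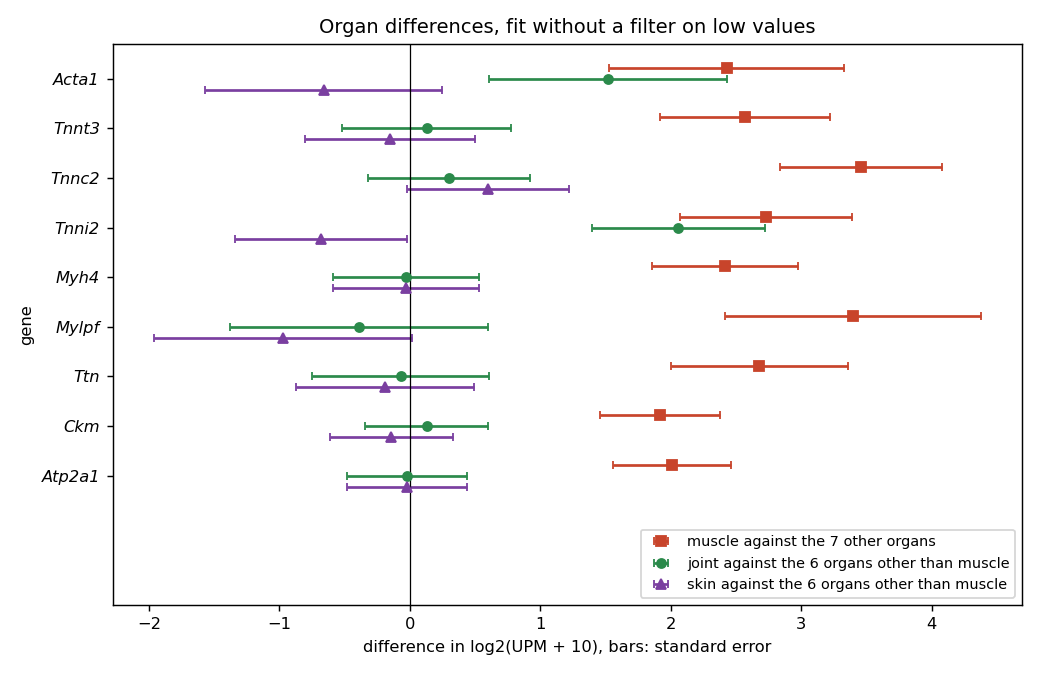
Points give the fitted difference in log2(UPM + 10) of muscle (squares, against the 7 other organs) and of joint (circles) and skin (triangles, each against the 6 organs other than muscle) for each of the 9 genes in the fit without a filter on low values, and bars give its standard error. All 9 muscle points lie between 1.92 and 3.46, while in joint only Acta1 (1.52) and Tnni2 (2.06) lie above 0.30 and in skin no point lies above 0.60.

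In blood and lymph node, where the states have replicates, no difference between CIA and healthy mice was found for these genes. Acta1 in blood was 36.0 ± 39.0 UPM in CIA (SD, n = 3) and 5.70 ± 10.3 UPM in healthy mice (SD, n = 4), with overlapping groups (two-sided exact permutation p = 0.257). In lymph node it was 56.1 ± 36.6 UPM in CIA (SD, n = 3) and 78.2 ± 32.7 UPM in healthy mice (SD, n = 4), again overlapping (two-sided exact permutation p = 0.4). Mylpf in blood was 10.3 ± 17.8 UPM in CIA and 42.0 ± 64.1 UPM in healthy mice (two-sided exact permutation p = 0.714, n = 3 and 4). The healthy mean rested on H3, and without it the healthy mice had 10.0 UPM and the difference turned from -31.8 to 0.229 UPM. The smallest p that 35 splits allow is 0.0286, and no p of a gene above 0 in these organs was below 0.257. By limma, Mylpf in blood differed by -0.83 (SE 1.02, adjusted p = 0.783) and Acta1 in lymph node by -0.45 (SE 0.41, adjusted p = 0.969). In blood 3 of 4801 genes, 0.0625%, were called, and in lymph node 1 of 5064, 0.0197%. At an unadjusted p under 0.05 there were 487 and 209 genes.

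The other 8 fast-fibre genes were all above 0 in CIA muscle, and the remaining fibre lists were so in part. The counts of genes above 0 that follow stand beside 35.8% of all 20704 genes with units that were above 0 in CIA muscle and 40.8% in healthy muscle. Of 8 other fast-fibre genes 8 were above 0 there and 2 in healthy muscle, with sums of 1591 and 32.4 UPM. Myl1, the fast essential light chain, had 440 UPM and was listed at 0 in all other libraries, healthy muscle included. Tpm1, a tropomyosin also made by other cells, had 766 UPM in CIA and 18.9 UPM in healthy muscle and reached 495 UPM in CIA skin. It was the only gene of this list that could be tested, with a difference of 1.41 (SE 0.78, limma adjusted p = 0.618). In skin it was called higher by 3.70 (adjusted p = 0.00109), and in joint it was not called (2.08, adjusted p = 0.156). Of 10 slow-fibre genes 4 were above 0 in CIA and 1 in healthy muscle, with sums of 116 and 37.8 UPM. Of these, the slow troponin Tnnt1 had 26 and 37.8 UPM, and the slow light chain Myl2 had 33.1 UPM in CIA muscle but 74.1 UPM in the blood of S7. The list members Casq2 and Myoz2 had 28.4 UPM each in CIA muscle and were listed at 0 in all other libraries. The slow heavy chain Myh7 and the slow troponins Tnnc1 and Tnni1 were at 0 in both muscle libraries.

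The excitation and calcium release list, which holds the channels and store proteins that link the nerve signal to calcium, had 6 of 14 genes above 0 in CIA muscle and 0 in healthy muscle. Trdn, triadin, had 340 UPM in CIA muscle and at most 1.78 UPM elsewhere, and Ryr1, the calcium release channel, 170 and at most 12.9 UPM. Of 13 genes of muscle energy supply 8 were above 0 in CIA muscle and 1 in healthy muscle. Eno3, the muscle enolase, had 246 and 16.2 UPM, and Cox8b, a respiratory chain subunit, 99.3 and 0 UPM. None of the slow-fibre, excitation and energy genes had a mean of 25 UPM (0 tested). Among 16 genes of thin filament, Z-disc and M-band, 14 of them in the table, 4 were above 0 in CIA muscle and 1 in healthy muscle. Tpm2 was the 1 gene of this list tested, and it was higher in muscle by 2.22 (SE 0.49, limma adjusted p = 0.0217), with 385 UPM in CIA and 14.7 UPM in healthy muscle and up to 86.7 UPM in CIA skin. Like Mylpf and Tnnc2 it reached the minimum level through the CIA muscle library. It was also called higher in joint by 2.73 (adjusted p = 0.000173) and in skin by 2.78 (adjusted p = 0.000114), so that its call was not particular to muscle.

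Of 11 satellite cell and myogenic factor genes, 10 of them in the table, only Mef2c and Vcam1 were above 0 in either muscle library, and both are also used outside muscle. Mef2c had 99.3 and 104 UPM in CIA and healthy muscle (difference from other organs 0.40, SE 0.82, adjusted p = 0.943), and Vcam1 28.4 and 19.2 UPM. Pax7, Myf5, Myod1, Myog and Myf6 were at 0 in both. The embryonic light chain Myl4 had 215 UPM in CIA and 10.2 UPM in healthy muscle, and the neonatal heavy chain Myh8 28.4 and 0 UPM. Of the cardiac list, Actc1 had 135 UPM in CIA muscle but up to 153 UPM in lymph node (difference 0.53, SE 0.73, adjusted p = 0.908), and Tnnt2 had 33.1 UPM. Smooth muscle genes summed to 1283 UPM in CIA and 71.1 UPM in healthy muscle. In muscle 0 of 3 tested were called, with 2.67 for Myl9 (SE 0.68, adjusted p = 0.0517) and 1.95 for Tagln (SE 0.55, adjusted p = 0.0936). In joint 2 of 3 were called higher, where 4.8% of genes were, Myl9 by 2.85 (adjusted p = 0.0056) and Tagln by 3.39 (adjusted p = 2.68e-05). In skin 0 of 3 were called. The non-muscle relatives of the 9 genes summed to 8722 and 8378 UPM, a ratio of 1.04, and 0 of 8 tested were called. Among them Actb, the actin of non-muscle cells, had 4987 and 3714 UPM.

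Markers of other cells also differed between the muscle libraries, and their part in these results was not tested. In CIA against healthy muscle, fibroblast markers summed to 12060 against 496 UPM (7 and 5 of 7 above 0), adipocyte markers to 3314 against 315 UPM (Fabp4 alone, which capillary endothelium also makes, with Adipoq, Plin1, Cfd and Car3 at 0 in both), and monocyte and macrophage markers to 10180 against 5220 UPM (7 and 3 of 8). Neutrophil markers went the other way, with 18630 against 105600 UPM (7 and 9 of 9), as did erythroid markers with 14150 against 27950 UPM (5 of 7 in each), B cell markers with 196 against 905 UPM (2 and 5 of 5) and T cell markers with 40.2 against 700.2 UPM (1 and 6 of 7). Endothelial markers were 187 against 44.7 UPM (3 and 1 of 6). Keratinocyte (1 and 2 of 7) and chondrocyte markers (2 and 0 of 6) were at most 50.4 UPM in either. In the organ fit 0.566% of all genes tested were called higher in muscle. Of the markers tested, 2 of 7 fibroblast, 2 of 8 neutrophil, 1 of 5 monocyte and macrophage and 1 of 1 adipocyte were called. Of the tested endothelial, B cell, T cell, erythroid, keratinocyte and chondrocyte markers 0 were called. For the lists with calls in muscle, in the same order, joint had 7 of 7, 8 of 8, 3 of 5 and 1 of 1. There 4.8% of genes were called higher. Skin had 7 of 7, 0 of 8, 0 of 5 and 1 of 1, where 4.78% of genes were. The calls of these lists were thus not particular to muscle.

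**Figure D3:**
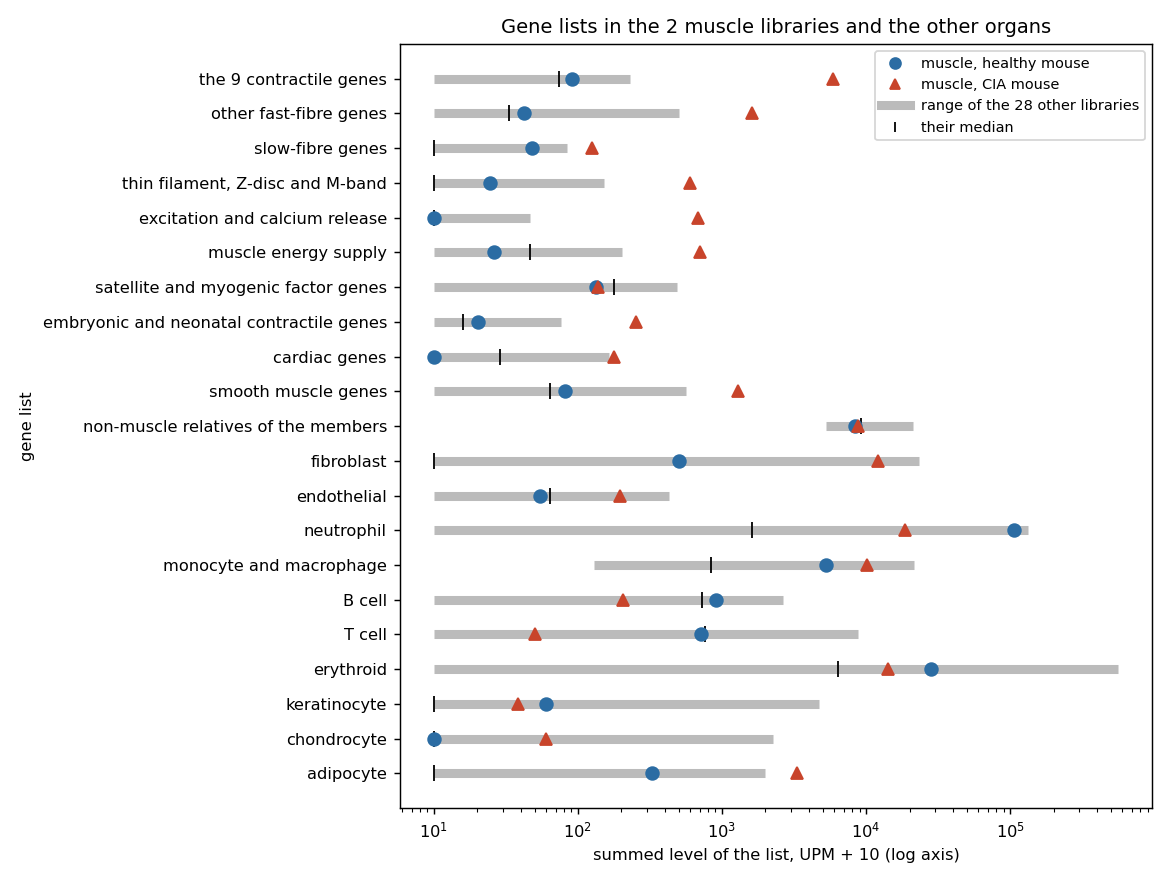
Each row is a gene list and the x axis its summed level as UPM + 10 on a log axis; points are healthy (circle) and CIA muscle (triangle), grey bars span the 28 libraries of other organs and ticks mark their median. The 9 genes stand at 5885 UPM in CIA muscle, 26.7 times the highest other library, while healthy muscle (81.6 UPM) lies on the grey bar.

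Within the CIA muscle library the 9 genes were carried very unevenly. All 54 barcodes had units of at least 1 of them, from 789 to 20350 UPM per barcode with a median of 1199. Of the 16 distinct profiles, 7 profiles in 14 barcodes held 9 of 9 genes, at 13800 to 20350 UPM. The other 9 profiles in 40 barcodes had 789 to 1515 UPM and lacked at least Atp2a1. The 14 barcodes held 87.1% of the units of the 9 genes and pooled to 18810 UPM, against 1046 UPM in the other 40. This grouping was made after the values were seen and is a description.

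The genes did not follow the 14 barcodes equally. Atp2a1 was found in them alone (100% of its units), and Tnni2, Mylpf, Tnnc2 and Acta1 had 95.7%, 95.2%, 94.9% and 92.7% of their units there. Myh4 had 86.3%, Ckm 84.6% and Tnnt3 77.0%. Ttn differed, with 39.0% of its units in the 14 barcodes and at least 1 unit in each of the other 9 profiles. Its pooled level was 833 UPM in the 14 and 487 UPM in the 40 barcodes, whereas Mylpf had 6142 and 117 UPM.

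The 14 barcodes are not 14 independent observations. In 12 of them Mylpf had the same 53 units, Tnnc2 28 units, Myh4 9, Atp2a1 6 and Ckm 5 units, and Acta1 ranged only from 27 to 29 units. The remaining 2 barcodes shared 1 profile with 36 units of Mylpf, 17 of Tnnc2 and 21 of Acta1. Because every value already adds up neighbouring barcodes, the number of cells behind these units is not known. The 7 profiles also carried 14510 to 29660 UPM of monocyte and macrophage markers and 465 to 4470 UPM of fibroblast markers. Among the other 9 profiles monocyte and macrophage markers ran from 0 to 21340 UPM, fibroblast markers from 3534 to 33470 UPM and neutrophil markers from 1169 to 84690 UPM.

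**Figure D4:**
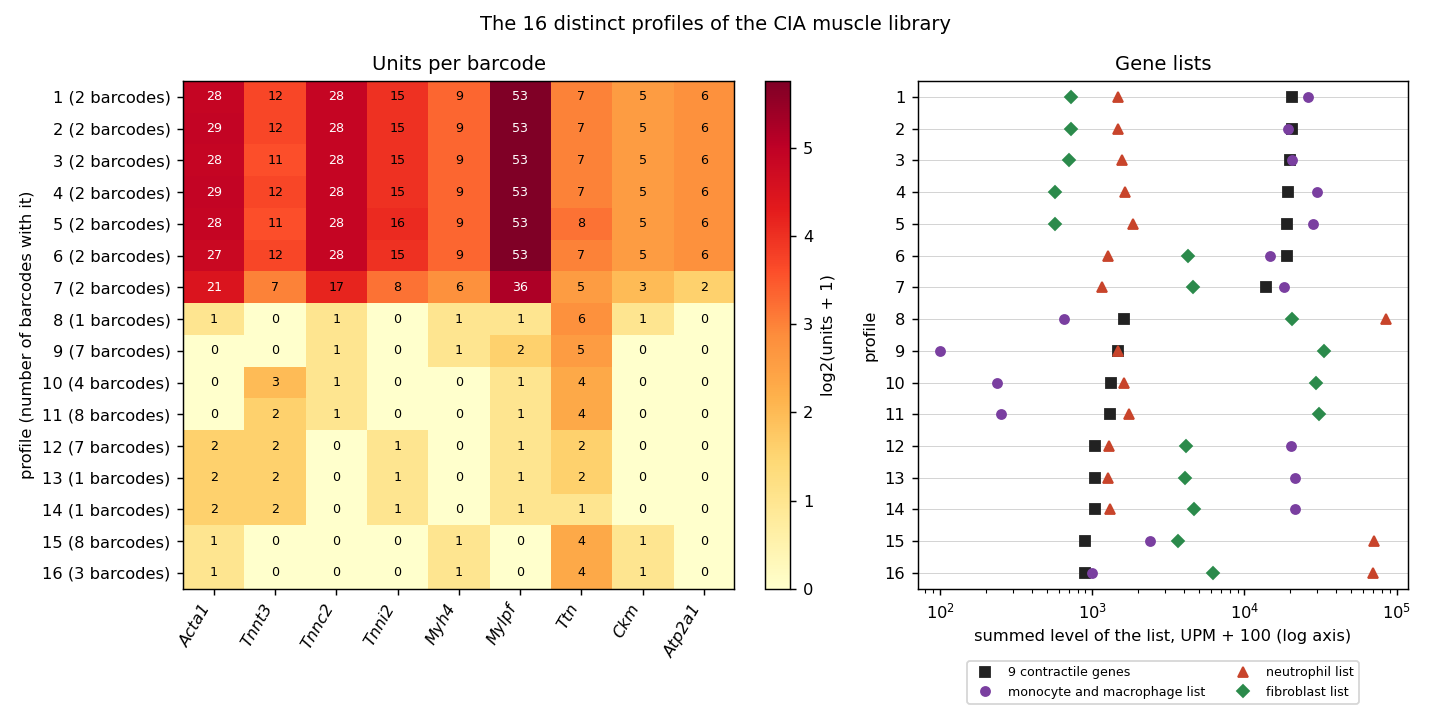
Rows are the 16 distinct profiles of the CIA muscle library, with their number of barcodes; colour and digits at the left give the units of each gene per barcode, and points at the right give summed levels of 4 gene lists as UPM + 100 on a log axis. Profiles 1 to 7 hold 53 or 36 units of Mylpf and the others at most 2, while Ttn is above 0 in every profile.

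No barcode of the healthy muscle library resembled these. There, 170 of 421 barcodes had a unit of at least 1 of the 9 genes, no profile held more than 2 of them, and the highest barcode had 495 UPM, below the lowest of CIA muscle. No healthy barcode had more than 3 units of Acta1 or 1 unit of Mylpf, Tnnc2 or Tnni2.

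Over the 26 sums of mouse and organ, the 10 other genes above that minimum level whose log2(UPM + 10) followed the summed 9 genes most closely were Eid1, Ccl12, Rbp7, Ogn, Myl9, Tle5, Daxx, Utrn, Commd3 and Gm6517. Pearson's r ran from 0.752 for Eid1 to 0.631 for Gm6517, and all points of a mouse share an animal. Without the CIA muscle sum, r fell to -0.08 for Ccl12, a monocyte chemokine with 820 UPM in CIA muscle and at most 17.8 UPM elsewhere, and to 0.32, 0.31 and 0.31 for Rbp7, Ogn and Myl9. It was 0.74 for Eid1 and 0.71 for Tle5. Myl9 was on the smooth muscle list. Of the lists of other skeletal muscle genes only Tpm1, Tpm2 and Mef2c reached the minimum level, so that few could appear here.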

How the data were processed

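Seq-Well libraries (cells captured with barcoded beads in microwells) of cryopreserved, dissociated organs were used, with muscle digested by collagenase. By the study's methods the authors aligned reads with STAR to GRCm38, whereas GEO's processing notes name GRCh38 and mm9. No file gives coordinates, and those printed are from the RefSeq table of GRCm38.p6. Molecules were counted with the Drop-seq tools, barcodes filtered, and the pilot libraries smoothed over nearest neighbours (k = 12). The deposited values are therefore a signal: whole-number sums over a barcode and its neighbours. Count models and counting errors do not apply to them. Of 23013 rows, 21404 matched a symbol, and rows without one held 3.39% of units.

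Units were summed per library, or per mouse and organ (26 sums), and scaled to a total of 1000000 (UPM). For the organ fits a trimmed mean of log ratios (30% and 5% trimmed) was added, genes below a mean level of 25 UPM were dropped, and log2(UPM + 10) was fitted with limma 3.58.1 (R 4.3.3) with terms for organ and state, moderated variances with a trend and Benjamini-Hochberg adjustment over all genes (call at adjusted p under 0.05). Differences on this scale understate changes of low genes. The tests planned for counts were replaced by limma because the values are smoothed. Joint, skin and muscle had 1 mouse per state and were not tested between states. In blood and lymph node the exact permutation test was run over mice. Programs were tested on simulated data.

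The 9 genes, the lists and the tests were chosen with earlier results of these data known. All 9 genes are named, with up to 4 called genes of each other list by smallest p (otherwise the 2 highest in muscle), except that cell type markers are given as list sums, and the 10 genes most like the sum. One gene that this rule names is not reported here. Genes named beyond this were picked after their values were seen. Examples are Myh1, Myh2, Casq2, Myoz2, the adipocyte markers, the slow genes and the myogenic factors at 0. Replicate numbers are mouse numbers, so the same number is the same animal across organs. Residuals of sums of the same mouse correlated with a median of 0.02 (49 pairs) and of different mice with -0.01 (228 pairs).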

Additional observations from a re-analysis of the deposited data

Results flagged for a closer look

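In the 4 healthy mice of blood or lymph node, 5 of 8 sets of values of these genes had 1 mouse far from the others by Dixon's test (gap over range above 0.829), where chance flags about 1 in 20 and sets with 3 zeros always qualify. In blood, Acta1 was 21.2 UPM in H7 (next 1.64), Mylpf 137.9 UPM in H3 (next 13.1), Myh4 2.87 UPM in H4 (others 0) and Tnnt3 6.96 UPM in H7 (others 0). In lymph node, Mylpf was 26.1 UPM in H6 (others 0). The difference between CIA and healthy libraries had opposite signs in muscle and in joint or skin for Acta1 and Tnni2, on the log2(UPM + 10) scale. Acta1 was 4.08 in muscle, -1.14 in joint and -2.47 in skin, and Tnni2 was 4.48 in muscle and -2.42 in joint. This difference was not tested. Acta1 was also higher in CIA thymus (49.1 against 30.1 UPM) and blood (36.0 against 5.70 UPM), and lower in CIA lung (0 against 96.3 UPM), spleen (19.2 against 37.9 UPM) and lymph node (56.1 against 78.2 UPM). Tnni2 was higher in CIA spleen (19.4 against 6.89 UPM) and blood (5.03 against 3.86 UPM).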

How the results depend on the processing

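The number of the 9 genes called higher in muscle was 2 of 3 tested in the fit described above, where 31 of 5481 genes were called higher. It was 1 of 3 with a pseudocount of 1 (44 of 5481 genes), 1 of 3 without the mean-variance trend (17 of 5481), and 7 of 9 without the filter on low values (331 of 20704). It was 3 of 4 with median-of-ratios scaling (38 of 5487) and with each distinct profile counted once (27 of 5461), where Tnni2 entered. The replicate block, with mouse as a fixed term, gave 1 of 3 (15 of 5481), and changed no call in joint or skin. Of alternatives chosen after seeing the data, leaving out blood gave 1 of 5 (18 of 5810), and using only sums of libraries with many rare genes, where CIA muscle is the 1 muscle sum, gave 6 of 7 (48 of 5817). Leaving out 1 muscle mouse gave 0 (without CIA mouse S1) to 3 (without healthy mouse H6). The lone mouse is then assumed to vary like the other organs, as is the lone CIA muscle sum among libraries with many rare genes. There Ttn, Myh4, Tnnt3 and Tnnc2 reached the minimum level of 25 UPM only through CIA muscle, since no other library exceeded 14.1 UPM. The 6 of 7 therefore supports nothing by itself. With total scaling and with scaling outside the erythroid list the count stayed at 2, as Mylpf lost its call at a difference no smaller (3.51 and 3.49, adjusted p = 0.0592 and 0.0691) and Tnni2 entered and was called (2.85 in both, adjusted p = 0.0154 and 0.0232). Where Mylpf lost its call, its adjusted p ran from 0.0505 to 0.166. The cause was not tested. Counts for joint and skin stayed at 0 in all organ fits run. Between the states in joint, a pseudocount of 1 put 1 gene, Mylpf (2.93), past the limit in place of 0.

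Leaving out 1 mouse reversed the sign of uncalled differences. Acta1 in skin ranged from -2.07 to 0.74 (log2). In blood the CIA minus healthy difference ranged from -44.3 to 0.229 UPM for Mylpf (positive without H3), from -1.16 to 3.96 for Ttn, from -1.74 to 2.88 for Tnnt3 and from -3.86 to 3.69 for Tnni2. For Mylpf in lymph node the limits were -6.51 and 8.60 UPM. In blood and lymph node Acta1 kept its sign but moved by over 1.5 times. In blood its difference of 30.3 UPM became 9.67 without S7 and 48.4 without S6, where the two-sided exact permutation p of 0.0667 is the smallest that 15 splits allow. In lymph node its difference of -22.1 UPM became -7.11 without H4, -43.1 without S2, -13.5 without S1 and -9.70 without S7.

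Replicates exist in blood and lymph node only, and smoothing hides the number of molecules behind a value.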
